A study of Mus musculus with 9 samples.

Results

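The TGF-beta genes described here are the ligands Tgfb1, Tgfb2 and Tgfb3, the receptors Tgfbr1, Tgfbr2 and Tgfbr3, the signal transducers Smad2, Smad3 and Smad7, and Ltbp1, which encodes a latent TGF-beta binding protein. They were chosen by symbol as members of the pathway, with earlier results of these data known, and all 10 were found among the 49671 gene rows of the count table. All 10 passed the filter on low counts, as did 18435 genes in all. RNA-seq was run on mouse skin cells sorted as CD45-negative, which sets aside leukocytes, and CD49f-positive, which keeps cells bearing the integrin alpha-6 chain of basal keratinocytes and some other cells. The 5 wt/wt libraries carry both intact copies of Flg, the gene of the epidermal barrier protein filaggrin, and the 4 ko/ko libraries carry the knockout allele on both. The study asked how loss of filaggrin changes keratinocyte gene expression. Each title has its own identifier, taken here as 1 animal, and the kind of Flg allele and the strain, age and sex of the mice were not stated in the labels. Where samples are not separate animals, the p-values measure only the spread between samples.

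TGF-beta is secreted as a latent complex, in which the mature dimer is held by its own propeptide and tethered to the matrix by a latent TGF-beta binding protein. Once freed, often by an integrin, it binds the type II receptor kinase TGFBR2, which phosphorylates the type I receptor kinase TGFBR1. The co-receptor betaglycan (TGFBR3) presents ligand, TGF-beta2 in particular. TGFBR1 phosphorylates SMAD2 and SMAD3, which enter the nucleus with SMAD4, and SMAD7 is induced by the signal and blocks the receptor. In skin the pathway restrains keratinocyte proliferation and drives matrix production by fibroblasts.

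In the sorted libraries, counts of the listed fibroblast markers far exceeded those of the basal keratinocyte markers, so the values below are those of a mixture. Library totals ran from 15601859 to 23200440 counts, and 1 count equals 0.0431 to 0.0641 CPM of the total (CPM, counts scaled to a common library size). The 8 fibroblast markers took 2.82% to 5.72% of counts in wt/wt and 3.91% to 6.01% in ko/ko, against 0.136% to 0.326% and 0.166% to 0.293% for the 8 basal keratinocyte markers. Positive log2 fold changes were found for 5 of the 8 fibroblast and 7 of the 8 basal keratinocyte markers. Itga6, which encodes the integrin chain used in the sort, lay at 43.4 to 66.3 CPM in wt/wt and 64.0 to 97.1 CPM in ko/ko. Gsn and Dcn supplied most of the fibroblast marker counts, and sums of short marker lists are not shares of cells. Krt14, the basal keratin, lay at 858 to 1834 CPM and Dcn, a fibroblast proteoglycan, at 10868 to 21870 CPM over the 9 libraries. Neither is scaled for exon length. Endothelial and mural transcripts were also present, with Pecam1 at 71.3 to 110 CPM and Rgs5 at 16.3 to 182 CPM. Myeloid markers, 11 of 11 with positive log2 fold changes, took 0.00417% to 0.00909% of counts in wt/wt and 0.00533% to 0.0287% in ko/ko; the smallest of these shares has an exact 95% interval of 0.00389% to 0.00446%. Ptprc, which encodes CD45, lay at 0.0508 to 0.864 CPM in wt/wt and 0.910 to 7.17 CPM in ko/ko, and Adgre1 and Tyrobp were at 0 in wt/wt replicate 2 and C1qc in wt/wt replicate 4. The 6 lymphatic markers, all 6 with negative log2 fold changes, took 0.0304% to 0.0684% in wt/wt and 0.0212% to 0.0272% in ko/ko. Within such a mixture, fewer cells of a type and less RNA per cell cannot be told apart. Collagen transcripts set 3 libraries apart from the other 6: Col1a1 was at 315 and 394 CPM in wt/wt replicates 1 and 2 and at 522 CPM in the first ko/ko replicate, while the other libraries had 1054 to 2359 CPM.

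Of the 10 genes, 6 have entries in the RefSeq promoter table (build GRCm38.p6). The bases directly before the start site are shown for 3 of them: Tgfbr1, the gene whose genotype groups separated, Tgfbr2, its partner kinase, and Tgfb2, the ligand with the lowest log2 fold change. Capitals mark matches on either strand to 3 motifs, which share no bases here. The GC box, a site of Sp1-type factors, was searched as GGGCGG. The TATA box, which places the start of transcription in some promoters, was searched as TATAAA. The Smad box, a short site that SMAD3 and SMAD4 bind, was searched as CAGAC. Each run holds 250 bases, 5′ to 3′ on the gene's own strand.
Tgfbr1, chr4:47352972-47353221, plus strand: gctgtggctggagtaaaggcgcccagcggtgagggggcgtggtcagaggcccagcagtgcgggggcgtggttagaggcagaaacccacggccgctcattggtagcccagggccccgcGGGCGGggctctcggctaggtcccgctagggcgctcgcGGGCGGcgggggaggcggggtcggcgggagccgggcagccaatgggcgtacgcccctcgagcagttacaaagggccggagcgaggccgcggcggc
Tgfbr2, chr9:116175364-116175613, minus strand: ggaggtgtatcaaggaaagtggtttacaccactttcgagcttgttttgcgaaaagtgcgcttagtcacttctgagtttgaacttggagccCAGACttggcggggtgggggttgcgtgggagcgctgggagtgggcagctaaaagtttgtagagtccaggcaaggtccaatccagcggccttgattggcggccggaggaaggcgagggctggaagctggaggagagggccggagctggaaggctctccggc
Tgfb2, chr1:186705990-186706239, minus strand: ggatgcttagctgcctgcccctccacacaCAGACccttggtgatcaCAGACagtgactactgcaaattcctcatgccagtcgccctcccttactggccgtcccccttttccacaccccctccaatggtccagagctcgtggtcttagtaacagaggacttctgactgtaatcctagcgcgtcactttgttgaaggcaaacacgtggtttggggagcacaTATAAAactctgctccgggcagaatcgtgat
The Tgfbr1 window is 74.8% G and C and holds 2 GC boxes, with 0 TATA and 0 Smad boxes. A second Tgfbr1 entry, whose window lies 32994 bases further into the gene (chr4:47385966-47386215), is 52.8% G and C and holds 1 Smad box, 0 GC boxes and 0 TATA boxes. The Tgfbr2 window is 58.4% G and C with 1 Smad box, and the Tgfb2 window is 53.6% G and C with 1 TATA box and 2 Smad boxes. Over 32851 promoter windows of this length the median G and C content was 52.4%, and 32.7% held a GC box, 12.4% a TATA box and 42.2% a Smad box. These matches describe letters only.

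Tgfb3 was the predominant TGF-beta ligand transcript in every library, and Tgfb1 had the lowest mean of the 10 genes. Levels of different genes are compared as CPM per kilobase of exon. On that scale Ltbp1 lay below Tgfb1 in wt/wt replicates 1 and 2 and in ko/ko replicate 1. Tgfb3 averaged 113 ± 32.6 CPM per kilobase (SD, n = 9), 3.91 times the next gene, and its lowest library (64.0) exceeded the highest library of any other gene here. It made up 85.5% to 90.0% of the summed per-length level of the 3 ligands in wt/wt and 88.1% to 89.1% in ko/ko. Tgfb2 made up 9.39% to 12.2% in wt/wt and 6.89% to 10.6% in ko/ko, and Tgfb1 0.415% to 3.69% and 1.09% to 4.02%.

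Below Tgfb3 the order was Tgfbr3 (29.0 ± 6.57 CPM per kilobase, SD, n = 9), Tgfbr2 (22.5 ± 7.07), Smad7 (15.5 ± 2.11), Tgfb2 (13.3 ± 4.39), Smad2 (10.03 ± 1.04), Tgfbr1 (8.68 ± 3.20), Smad3 (5.03 ± 1.00), Ltbp1 (3.89 ± 2.28) and Tgfb1 (1.89 ± 1.05). From Tgfbr3 downward, each neighbouring pair overlapped in range, and the upper gene of a pair exceeded the lower in 6 to 8 of 9 libraries, so the order of neighbours is not fixed. The co-receptor Tgfbr3 thus had the highest mean of the 3 receptors, but Tgfbr2 exceeded it in wt/wt replicates 3 and 5. The type I receptor was the least abundant receptor per length in 8 of 9 libraries; in ko/ko replicate 1 it exceeded Tgfbr2, at 14.0 against 11.4 CPM per kilobase. Counts behind these values ran from 84 (Tgfb1 in wt/wt replicate 5) to 12060 (Tgfb3).

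**Figure D1:**
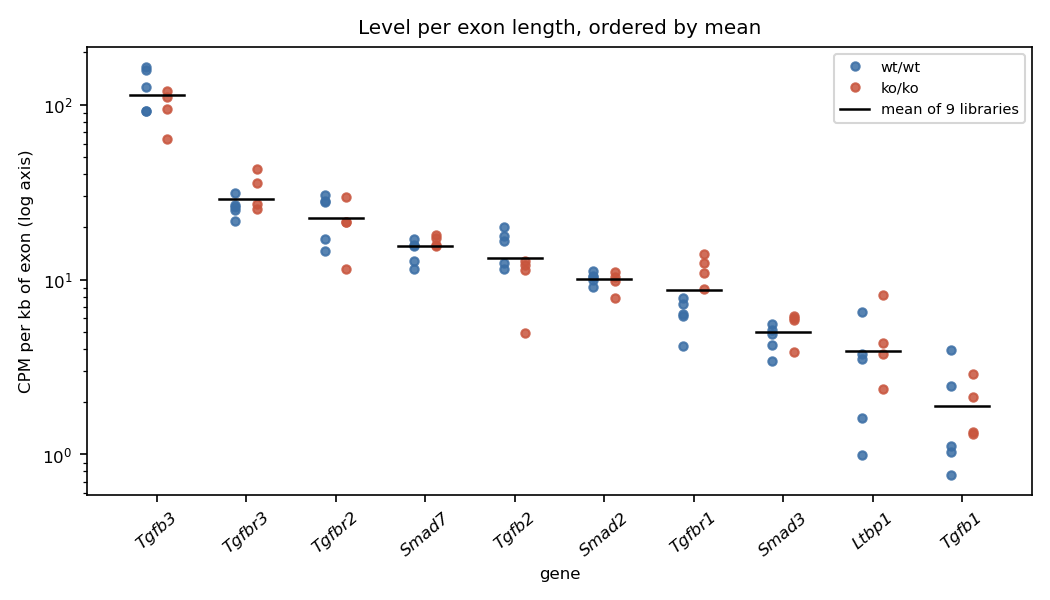
CPM per kilobase of exon (log axis) for each gene, ordered by the mean over the 9 libraries (black line); points are single libraries, blue for wt/wt and red for ko/ko. The lowest Tgfb3 library, at 64.0, lies above every point of the other genes, whose neighbouring ranges overlap.

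Between genotypes, none of the 10 genes passed edgeR's quasi-likelihood test after Benjamini-Hochberg adjustment over all genes, and 2 had an unadjusted p under 0.05: Tgfbr1 with a higher and Tgfb2 with a lower mean in ko/ko. The adjusted test called 1 of 18435 genes in all (0.00542%), while 15.3% of all genes had an unadjusted p under 0.05, 8.86% as higher and 6.42% as lower. DESeq2 and limma voom with quality weights each called 1 of the 10 genes, Tgfbr1 as higher. DESeq2 called 3.63% of the 17333 genes it gave an adjusted p, 2.53% as higher and 1.11% as lower, and weighted voom called 9.77%, 6.6% as higher and 3.17% as lower. The median log2 fold change of the 10 genes was 0.12, with 6 positive and 4 negative, beside -0.03 over all genes tested. Each log2 fold change sets ko/ko over wt/wt and comes with the standard error (SE) of the edgeR fit.

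Tgfbr1, the type I receptor kinase (ENSMUSG00000007613, mm10 chromosome 4, 47353222 to 47414931, plus strand, protein-coding), was the 1 gene of the 10 whose genotype groups did not overlap. Its levels were 41.4, 51.6, 47.7, 40.7 and 27.3 CPM in wt/wt replicates 1 to 5 and 91.7, 81.3, 71.0 and 57.6 CPM in ko/ko replicates 1 to 4. The lowest ko/ko library thus lay above the highest wt/wt library; of all genes tested, 6.25% did not overlap, 3.51% with ko/ko higher and 2.74% with ko/ko lower. The ko/ko mean was 75.4 ± 14.6 CPM (SD, n = 4) and the wt/wt mean 41.7 ± 9.24 CPM (SD, n = 5), which gives a fold of 1.81 with a 95% interval of 1.34 to 2.44. On the log2 scale the difference was 0.85 (SE 0.20) with an edgeR adjusted p of 0.133, a DESeq2 adjusted p of 0.00864 and a weighted voom adjusted p of 0.0240. With the trend on exon length taken out of each library it was 0.76 (edgeR adjusted p = 0.161), and over the 9 fits that left out 1 library it was 0.73 to 0.96. Itga6, of the sort, also had a higher ko/ko mean, with overlapping groups (log2 fold change 0.64, SE 0.17). Its adjusted p was 0.157 with edgeR, 0.0267 with DESeq2 and 0.0187 with weighted voom. Myeloid marker shares fell from ko/ko replicate 1 to 4 as Tgfbr1 did, but did not follow it within wt/wt. The part of the cell mixture in the Tgfbr1 difference was not tested.

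Tgfbr2, the type II kinase that partners it (ENSMUSG00000032440, chromosome 9, 116084293 to 116175360, minus strand), showed no such separation. Its levels were 120, 140, 251, 228 and 232 CPM in wt/wt replicates 1 to 5 and 93.7, 244, 175 and 174 CPM in ko/ko replicates 1 to 4. The low values were those of the 3 libraries low in collagen transcripts, in both genotypes. For Tgfbr2 the log2 fold change was -0.18 (SE 0.29; edgeR adjusted p = 0.805), and it changed sign, to 0.03, without ko/ko replicate 1. The interval of the fold, 0.569 to 1.37, includes a sizeable change in either direction. The per-length ratio of Tgfbr1 to Tgfbr2 was 0.147 to 0.461 in wt/wt and 0.414 to 1.23 in ko/ko, so the ranges overlapped, with wt/wt replicates 1 and 2 above ko/ko replicates 2 and 4.

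Tgfbr3, the co-receptor betaglycan (ENSMUSG00000029287, chromosome 5, 107106570 to 107289629, minus strand), overlapped between genotypes. Its levels were 163, 142, 174, 205 and 170 CPM in wt/wt and 165, 281, 232 and 177 CPM in ko/ko. The ko/ko replicates 2 and 3 were above all wt/wt libraries and the other ko/ko libraries were within their range. The log2 fold change was 0.33 (SE 0.18, edgeR adjusted p = 0.418), and it was 0.57 when the 3 libraries with most reads of the predicted-gene group around Gm10800 were left out (wt/wt replicate 1 and ko/ko replicates 1 and 4). With 1 library left out it ran from 0.17 without ko/ko replicate 2 to 0.43 without ko/ko replicate 1. Of its exon bases, 4.54% are shared with the predicted gene Gm43422.

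Among 9749 other genes averaging at least 10 CPM, those whose log2 CPM over the 9 libraries was most like each receptor's were Mindy2 and Wdr26 for Tgfbr1 (likeness as Pearson correlation, 0.987 and 0.984), Tspan2 and Mrps23 for Tgfbr2 (0.985 and 0.982) and Lepr and Snx18 for Tgfbr3 (0.940 and 0.914). These values are descriptions over 9 libraries of 2 genotypes, whose shared makeup and genotype enter them.

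**Figure D2:**
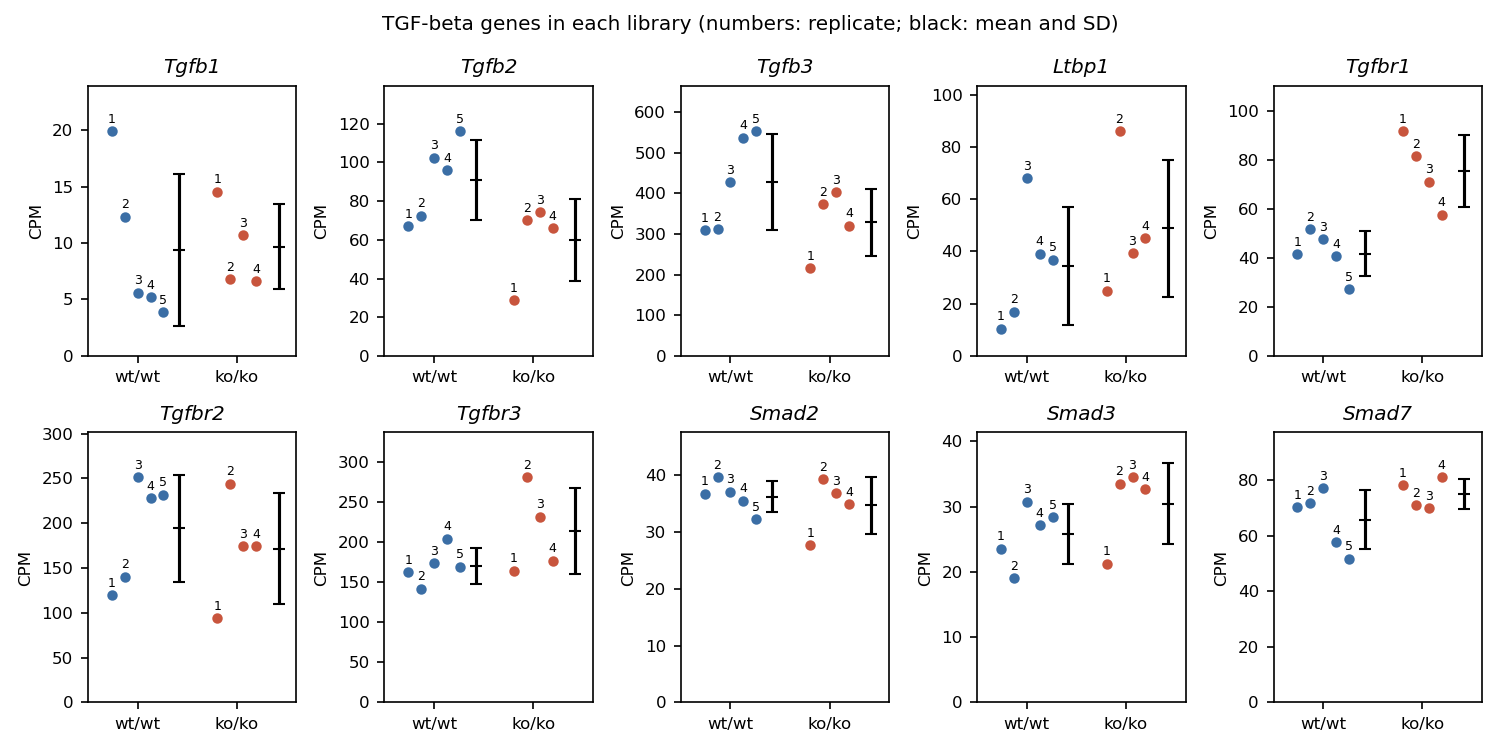
CPM of each gene in each library (axis from 0), numbered by replicate, blue for wt/wt and red for ko/ko; black marks give the mean and SD of the group. The 4 ko/ko libraries of Tgfbr1, at 57.6 to 91.7 CPM, lie above all wt/wt libraries, while the groups of the other 9 genes overlap.

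Tgfb2, the ligand that needs betaglycan most (ENSMUSG00000039239, chromosome 1, 186622792 to 186705989, minus strand), had a lower mean in ko/ko. Its levels were 67.0, 72.5, 102, 95.9 and 116 CPM in wt/wt and 28.7, 70.3, 74.4 and 66.1 CPM in ko/ko. The ko/ko replicates 2 to 4 overlapped wt/wt replicates 1 and 2 and lay below wt/wt replicates 3 to 5, and ko/ko replicate 1 was below all others. The ko/ko mean was 59.9 ± 21.1 CPM (SD, n = 4) and the wt/wt mean 90.8 ± 20.7 CPM (SD, n = 5), which gives a fold of 0.660 (95% interval 0.437 to 0.995). On the log2 scale this is -0.60 (SE 0.27, unadjusted p = 0.0476, edgeR adjusted p = 0.321) and -0.37 without ko/ko replicate 1 (edgeR adjusted p = 0.522). DESeq2 gave an adjusted p of 0.228 and weighted voom 0.0558.

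Tgfb3, the predominant ligand (ENSMUSG00000021253, chromosome 12, 86056744 to 86079041, minus strand), had 310, 313, 427, 537 and 554 CPM in wt/wt and 217, 374, 404 and 320 CPM in ko/ko. As for Tgfb2, the first ko/ko replicate and the first 2 wt/wt replicates were the lowest libraries of their group, and the groups overlapped. The log2 fold change was -0.38 (SE 0.24, edgeR adjusted p = 0.466), and with 1 library left out it ran from -0.50 without ko/ko replicate 3 to -0.23 without ko/ko replicate 1. Antisense predicted genes share 2.14% of the exon bases of Tgfb2 (Gm29491) and 4.82% of those of Tgfb3 (Gm37804), and the counting is not stated to use strand.

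Tgfb1 (ENSMUSG00000002603, chromosome 7, 25687002 to 25705077, plus strand), the ligand made by many immune and stromal cells, showed the reverse order of libraries. Its levels were 19.9, 12.3, 5.62, 5.19 and 3.86 CPM in wt/wt and 14.6, 6.79, 10.7 and 6.62 CPM in ko/ko. The highest libraries were the 3 low in collagen transcripts, and the wt/wt range held all ko/ko values. The fold of Tgfb1 was 1.03, with a 95% interval of 0.506 to 2.09 (0.04 on the log2 scale, SE 0.47, edgeR adjusted p = 0.974). It was 0.59 with weighted voom, and 0.72 without those 3 libraries (edgeR adjusted p = 0.0842).

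Ltbp1, which tethers latent TGF-beta to the matrix (ENSMUSG00000001870, chromosome 17, 75005568 to 75392512, plus strand), varied most among the 10 genes, 8.30 times between its lowest and highest library. Its levels were 10.4, 17.0, 68.0, 39.2 and 36.8 CPM in wt/wt and 24.97, 86.1, 39.3 and 45.2 CPM in ko/ko. Within wt/wt, replicates 1 and 2 were the lowest and replicate 3 the highest library, as they were for Col1a1. The log2 fold change was 0.51 (SE 0.49, edgeR adjusted p = 0.643). Over the 9 fits that left out 1 library it ran from 0.09 without ko/ko replicate 2 to 0.92 without wt/wt replicate 3. It was 0.15 with weighted voom and 0.66 with unweighted voom, and 0.25 without the 3 libraries low in collagen transcripts.

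The 3 Smads had the smallest ranges of the 10 genes, with 1.43, 1.56 and 1.81 times between the lowest and highest library for Smad2, Smad7 and Smad3. Smad2 (ENSMUSG00000024563, chromosome 18, 76241580 to 76305731, plus strand), a receptor-activated Smad, ranged from 27.7 to 39.6 CPM over all 9 libraries, and Smad7 (ENSMUSG00000025880, chromosome 18, 75367529 to 75395935, plus strand), the inhibitory Smad, from 51.8 to 81.1 CPM. Smad3 (ENSMUSG00000032402, chromosome 9, 63646767 to 63757994, minus strand), the other receptor-activated Smad, had 23.5, 19.1, 30.7, 27.1 and 28.4 CPM in wt/wt and 21.3, 33.5, 34.4 and 32.6 CPM in ko/ko. For Smad3, ko/ko replicates 2 to 4 thus lay above all wt/wt libraries and ko/ko replicate 1 near the bottom of their range. The log2 fold changes were 0.24 for Smad3 (SE 0.19, edgeR adjusted p = 0.568) and 0.19 for Smad7 (SE 0.15, edgeR adjusted p = 0.560). With 1 library left out, Smad3 ran from 0.15 without wt/wt replicate 2 to 0.38 without ko/ko replicate 1, and Smad7 from 0.12 without wt/wt replicate 5 to 0.26 without wt/wt replicate 3. Smad2 had -0.06 (SE 0.14, edgeR adjusted p = 0.860), a sign that turned with library totals alone, weighted voom and 3 sets of left-out libraries. The intervals in folds were 0.884 to 1.58 for Smad3, 0.912 to 1.43 for Smad7 and 0.772 to 1.19 for Smad2. The per-length ratio of Smad7 to Smad2 and Smad3 together was 0.805 to 1.09 in wt/wt and 0.917 to 1.49 in ko/ko.

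**Figure D3:**
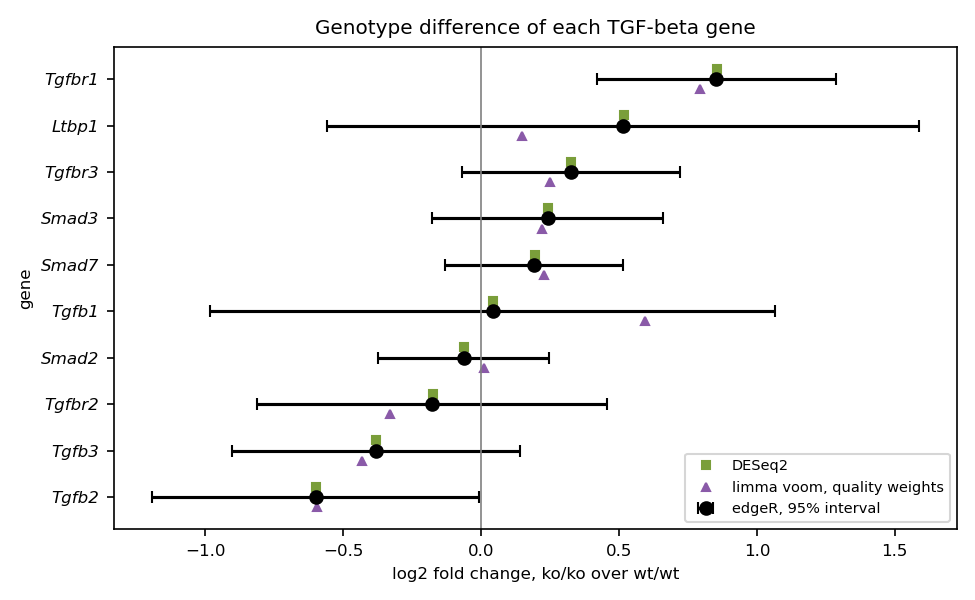
Log2 fold change of ko/ko over wt/wt for each gene by edgeR (black, with 95% interval), DESeq2 (squares) and limma voom with quality weights (triangles). The unadjusted interval excludes 0 for Tgfbr1 (0.42 to 1.29) and narrowly for Tgfb2 (-1.19 to -0.01), and the weighted fit departs most from edgeR for Tgfb1 (0.59 against 0.04).

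The 3 libraries low in collagen transcripts touched most of these values, as the plot of centred levels by library shows. Leaving them out, a choice made after seeing the data, left 3 wt/wt and 3 ko/ko libraries, and edgeR then called 13.4% of all genes (2420 of 18031), 8.4% as higher and 5.02% as lower. Among the 10 genes it called Tgfbr1 as higher (log2 fold change 0.86, SE 0.21, edgeR adjusted p = 0.0231) and Tgfb2 as lower (-0.57, SE 0.13, edgeR adjusted p = 0.0179), so 2 of 10 stand beside that share. The size of both differences was close to that over all 9 libraries (0.85 and -0.60). Weighted voom gave these 3 libraries the lowest weights, 0.330, 0.425 and 0.351, against 0.853 to 2.42 for the other 6. The same 3 libraries had the lowest fibroblast marker shares, 3.32% and 2.82% in wt/wt replicates 1 and 2 and 3.91% in ko/ko replicate 1. The other 6 had 4.60% to 6.01%. The fibroblast list itself holds Col1a1, Col1a2 and Col3a1, so this match is partly built in. Of Gsn and Dcn, which supplied most of its counts, Gsn was also lowest in these 3 libraries. Dcn was not, being lower in ko/ko replicate 3 (12986 CPM) than in ko/ko replicate 1 (13475 CPM). Mural marker shares were also lowest in these 3, at 0.0230%, 0.0189% and 0.0281%, against 0.0296% to 0.0457%. What sets the 3 libraries apart was not tested, and they come from both genotypes.

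**Figure D4:**
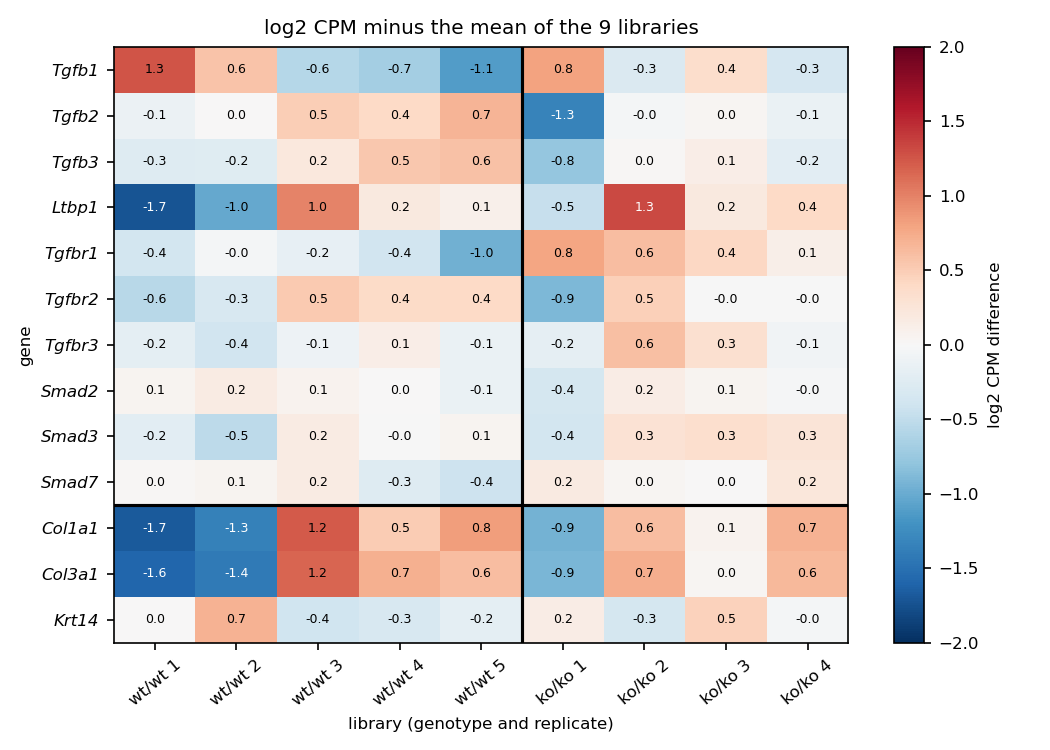
Log2 CPM of each gene minus its mean over the 9 libraries, with Col1a1, Col3a1 and Krt14 below the line for comparison; columns are libraries, red is above and blue below the mean. Tgfb1 is above its mean and Tgfb3, Tgfbr2 and Ltbp1 are below theirs in the first 2 wt/wt libraries and the first ko/ko library, those lowest in Col1a1 and Col3a1, whereas Tgfbr1 is above its mean in all 4 ko/ko libraries.

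The wider pathway was read from 4 lists by role, 85 genes in all, of which 83 were tested. None passed edgeR's adjusted test (0 genes), and 14 had an unadjusted p under 0.05, 9 higher and 5 lower, beside 15.3% of all genes. DESeq2 called 5 of them, 2 higher and 3 lower (3.63% of all genes), and weighted voom called 8, 5 higher and 3 lower (9.77% of all genes). These 8 included the 5 of DESeq2 and were the same 8 genes that edgeR called without the 3 libraries low in collagen transcripts (13.4% of all genes). Weighted voom gave those 3 libraries its lowest weights. Both fits thus rest mainly on the same libraries, and their match is not independent support. The median log2 fold change of the 83 was 0.02, beside -0.03 over all genes, and 50.6% were positive, beside 47.4% of all genes. CPM did not overlap between genotypes for 3 of the 83 with ko/ko higher and 6 with ko/ko lower. Over all genes these shares were 3.51% and 2.74%. Lrrc32, Bambi, Ppm1a, Vegfa and Id1, described below, are among them, as are Tgfbrap1, Nup214, Junb and Id3.

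Of 18 tested latency and activation genes, 10 were positive and 8 negative (median 0.09), with 1 higher and 1 lower at an unadjusted p under 0.05. Lrrc32, which encodes GARP, a cell-surface anchor of latent TGF-beta, had 20.5, 21.4, 24.8, 18.0 and 21.7 CPM in wt/wt and 13.4, 12.5, 16.1 and 12.1 CPM in ko/ko. The groups did not overlap, and Lrrc32 had -0.65 (SE 0.16, edgeR adjusted p = 0.140, DESeq2 adjusted p = 0.00804). The next by p-value also did not pass: Mmp14, a membrane protease, had 0.49 (SE 0.20), Itgb8, an integrin chain that frees TGF-beta from its latent complex, had 0.48 (SE 0.23) and Nrros, the GARP-related anchor of myeloid cells, had 0.56 (SE 0.28). Nrros had a wt/wt mean of 3.84 ± 0.725 CPM (SD, n = 5) and a ko/ko mean of 5.68 ± 1.62 CPM (SD, n = 4), in libraries whose myeloid marker shares differed as given above; their part in it was not tested.

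Of 20 co-receptors and receptor regulators, 8 were positive and 12 negative (median -0.09), 3 higher and 1 lower at an unadjusted p under 0.05. Bambi, a pseudoreceptor that lacks the kinase domain and dampens TGF-beta signalling, had 254, 221, 309, 370 and 356 CPM in wt/wt and 166, 209, 203 and 187 CPM in ko/ko. No ko/ko library reached the lowest wt/wt library, and the log2 fold change was -0.66 (SE 0.18, edgeR adjusted p = 0.159, DESeq2 adjusted p = 0.0213, weighted voom adjusted p = 0.0121). Pmepa1, a target gene that feeds back on Smad activation, had 0.59 (SE 0.22, edgeR adjusted p = 0.244, weighted voom adjusted p = 0.0151). Zfyve9, the anchor protein that brings Smads to the receptor, had 0.50 (SE 0.22), and Smurf2, a ubiquitin ligase of receptors and Smads, had 0.42 (SE 0.19).

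Of 20 Smad partners and nuclear regulators, 16 were positive and 4 negative (median 0.22), 3 higher and 1 lower at an unadjusted p under 0.05. Ppm1a, a phosphatase that acts on activated Smads, had 33.9, 43.2, 40.3, 36.2 and 33.4 CPM in wt/wt and 62.5, 54.3, 47.5 and 51.0 CPM in ko/ko. These groups did not overlap, and the log2 fold change was 0.52 (SE 0.14, edgeR adjusted p = 0.156, DESeq2 adjusted p = 0.0236). Smad4, the common partner of the activated Smads, had 0.47 (SE 0.15, edgeR adjusted p = 0.212, weighted voom adjusted p = 0.0174). Rnf111, a ubiquitin ligase that removes inhibitors of the pathway, had 0.58 (SE 0.19) and Nup214, a nuclear pore protein, had -0.55 (SE 0.18), both short of the threshold. With exon-length trends removed, 32 of the 83 pathway genes were positive in place of 42, and with library totals alone 55. Of all 18435 genes tested, 7526 were positive in place of 8743 with the trend removed, and 10887 with library totals alone. The signs of all genes thus moved the same way.

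Of 28 transcriptional targets, 9 were positive and 19 negative (median -0.10), 3 higher and 2 lower at an unadjusted p under 0.05. Over all genes tested 47.4% were positive. The list was not split by direction of response, and Itgb6, Pmepa1 and Skil also stand in other lists. Its count of signs is therefore no readout of pathway activity. Vegfa, an angiogenic growth factor, had 9.71, 8.27, 7.67, 4.98 and 2.39 CPM in wt/wt and 20.2, 13.0, 15.4 and 11.5 CPM in ko/ko. The groups did not overlap, and the log2 fold change was 1.18 (SE 0.35, edgeR adjusted p = 0.184, DESeq2 adjusted p = 0.0378). Id1, an inhibitor of basic helix-loop-helix factors that BMP signalling induces strongly, had -0.54 (SE 0.15, edgeR adjusted p = 0.174, DESeq2 adjusted p = 0.0232), also with no overlap. Fn1, fibronectin, had 0.60 (SE 0.24, edgeR adjusted p = 0.271), and Pmepa1 is given above. The collagens Col1a1, Col1a2 and Col3a1, classical targets in fibroblasts, had -0.08 (SE 0.56), 0.25 (SE 0.43) and -0.03 (SE 0.55), with SEs larger than the differences. Ccn2, connective tissue growth factor, had -0.27 (SE 0.35, edgeR adjusted p = 0.743). The collagens and Ccn2, beyond the first 4 by p-value, were named after their values were seen.

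**Figure D5:**
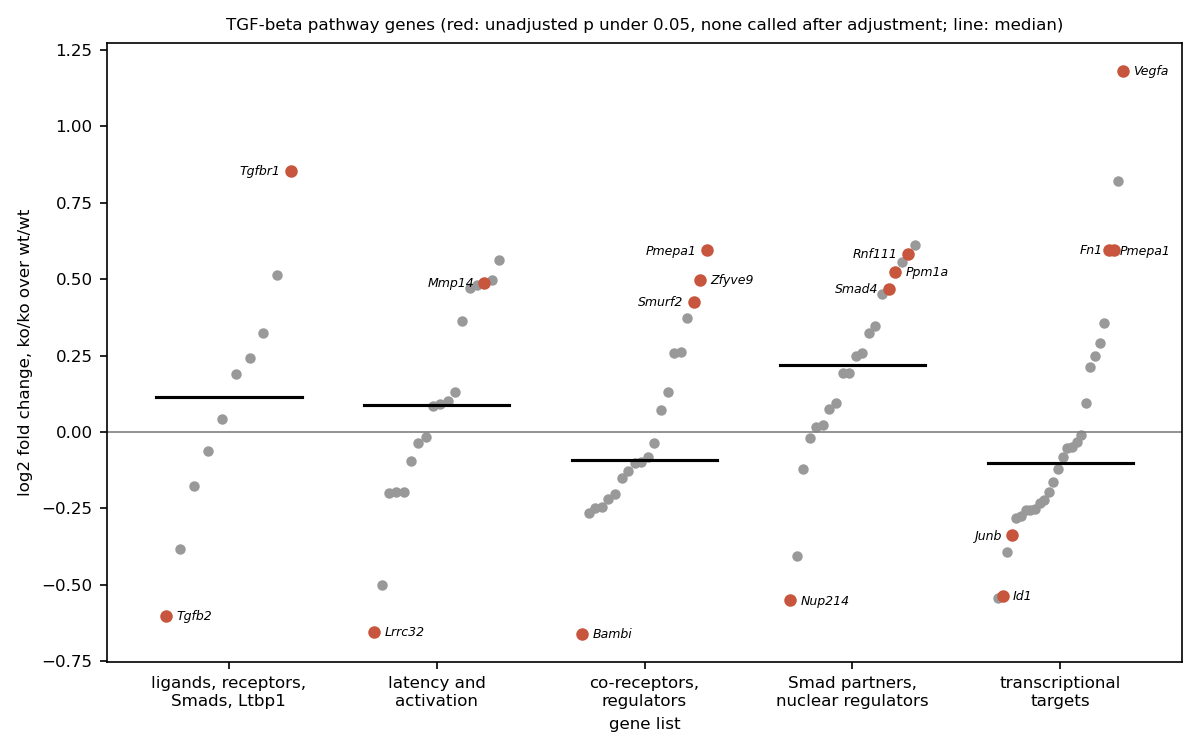
Log2 fold change of ko/ko over wt/wt for the 10 genes and the 4 pathway lists; each point is a gene, red with an unadjusted p under 0.05, and lines are medians. No point passes edgeR's adjusted threshold, list medians lie between -0.10 and 0.22, and Tgfbr1, Vegfa, Lrrc32, Bambi and Tgfb2 are among the red points at the ends.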

How the data were processed

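Raw gene counts as deposited by the authors, with a column for each library, came from polyadenylated RNA amplified over 13 cycles by a SMARTseq2 protocol, per the labels' protocols. GSNAP, featureCounts 1.6.2 and mm10 were used, per the submitters' processing notes; how strand, multi-mapped and duplicate reads were handled is not stated there. The 92 spike-in rows were left out. Symbols came from a gene name table (49326 of 49671 rows matched). Tests used edgeR 4.0.16 in R 4.3.3 (filterByExpr, TMM factors, glmQLFit with robust=TRUE, two-sided quasi-likelihood F test, Benjamini-Hochberg over 18435 genes, threshold 0.05), with DESeq2 1.42.0 and limma 3.58.1 as alternatives. CPM use TMM-adjusted library sizes, marker shares library totals. Each SE was derived from the fold change and its F statistic, and 95% intervals use the fit's degrees of freedom. On simulated counts over 18435 genes, 41 of 100 genes with a 2-fold and 82 of 100 with a 4-fold change were recovered, with 7 false among 130 calls. Each simulated gene was drawn independently, without the shift that many genes share in the 3 libraries low in collagen transcripts. These rates therefore do not give the sensitivity of the test on the real counts. Members, lists, tests and alternatives were chosen with earlier results of these data known. Named were the 10 genes, the 4 smallest p-values of each pathway list, fixed markers and the 2 genes most like each receptor. Replicates were numbered by accession, which pairs no samples. Libraries carry no molecular identifiers in the labels, so intervals on shares reflect counting alone. Every pair of libraries differed beyond sampling noise, with a chi-square of at least 23.9 per degree of freedom.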

Additional observations from a re-analysis of the deposited data

Results flagged for a closer look

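A library far from the rest of its group was found in 2 of the 20 gene-by-genotype groups examined, and about 5% arise by chance. Both were in ko/ko replicate 1, where Tgfb2 was 4.85 log2 CPM while ko/ko replicates 2 to 4 had 6.05 to 6.22, and Smad3 was 4.42 log2 CPM while they had 5.03 to 5.11. That library had the smallest total, 15601859 counts, and was 1 of the 3 low in collagen transcripts. Without it the log2 fold changes were -0.37 for Tgfb2 (edgeR adjusted p = 0.522) and 0.38 for Smad3 (edgeR adjusted p = 0.449).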

How the results depend on the processing

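No member passed edgeR's threshold under other factors, filters, robust=FALSE, unweighted voom, length-trend removal, removal of the Gm10800-rich libraries or of any single library; DESeq2 and weighted voom each called 1 and the fit without the 3 libraries low in collagen transcripts, added after seeing the data, called 2. Of the pathway genes these 3 fits called 5, 8 and 8, and the other fits 0. Over all genes 1 was called, against 4 with library totals alone, 28 with no filter, 630 by DESeq2, 1802 by weighted voom, 0 with the length trend removed, 7 without the Gm10800-rich libraries, 2420 without the libraries low in collagen transcripts and 0 to 12 with 1 library left out. Library totals moved the median log2 fold change of all genes by 0.11. Tgfbr1 ran from 0.73 to 0.96 over 21 alternatives (adjusted p 0.00864 to 0.312) and Tgfb2 from -0.72 to -0.37 (0.0179 to 0.551). Signs turned for Smad2 (0.037 with library totals, 0.011 with weighted voom, 0.074 without the Gm10800-rich libraries, 0.086 without those low in collagen transcripts, -0.13 to 0.030 with 1 library left out, positive without ko/ko replicate 1), for Tgfb1 with 1 library left out (-0.22 to 0.52, negative in 5 of those 9 fits) and for Tgfbr2 (-0.39 to 0.025 with 1 library left out, positive without ko/ko replicate 1); the cause was not tested. The lowest count behind a member's value was 84. No paired analysis was possible because the labels carry no replicate numbers.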
